A study of Mus musculus with 2 samples.

Results

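The genes described here were the 10 members of the Bcl2 family of survival and death genes that the study's tables list as Bcl2, Bcl2l1, Mcl1, Bcl2a1b, Bcl2a1d, Bax, Bak1, Bad, Bcl2l11 and Bbc3, matched by symbol among 32285 genes. Each symbol matched 1 gene, so all 10 were followed in every cell type. Cells were taken from the cranial bone of C57BL/6 mice around a frontal bone defect, 7 days after injury, and single-cell RNA was counted on the 10x Genomics platform. The mice were male and 2 months old per the study's methods. In the GA group, mice received intraperitoneal gambogic amide, a small molecule agonist of the nerve growth factor receptor TrkA, at 1.2 mg/kg per the labels (the study's methods give another dose) in 100 µL of 10% DMSO, from 24 hours before injury and then daily for 1 week. Control mice received 100 µL of 10% DMSO alone on the same days. Injury, strain, vehicle and time were thus shared by both groups. Cells of 5 mice were pooled into 1 library per group. With 1 library a group there was no replicate, so no test between GA and control was possible, and every interval below covers counting error only and not the spread between animals.

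Bcl2 family proteins decide whether mitochondria release cytochrome c, the step that commits a cell to apoptosis. Survival members (Bcl2, Bcl2l1, Mcl1 and the Bcl2a1 copies) hold back the pore-forming effectors Bax and Bak1, and BH3-only proteins (Bad, Bcl2l11 and Bbc3, whose proteins are also called BAD, BIM and PUMA) bind the survival members and free the effectors. Neutrophils are short-lived cells known to depend on Mcl1 and to use Bcl2a1, whereas lymphocytes are known to depend on Bcl2 and, during B cell development, on Bcl2l1.

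The GA library held 9322 cell barcodes with 182949385 unique molecular identifiers (UMIs, 1 per captured RNA molecule), and the control library held 8718 barcodes with 214993030 UMIs. After filtering, 8388 GA cells and 7529 control cells remained, with a median of 10912 and 16357 UMIs per cell. The libraries shared 23 barcode sequences, of which 20 were among the kept cells. Cells were clustered without the Bcl2 family genes and each cluster was named from marker genes, so every name means "like" that type. Neutrophil-like cells formed 52.8% of GA cells (95% exact binomial interval 51.7 to 53.9) and 27.6% of control cells (26.6 to 28.6), and macrophage or monocyte-like cells formed 12.8% and 22.0%. All 10 neutrophil markers were at least 2-fold higher in the neutrophil-like cells than in the rest, as were 9 of 11 macrophage or monocyte markers, 9 of 9 dendritic, 9 of 9 B, 12 of 12 T or NK and 8 of 8 mesenchymal markers. Re-clustered neutrophil-like cells fell into dividing precursors (500 cells), immature cells (1876), mature cells (2317), mature cells high in chemokine genes such as Ccl3, Ccl4 and Cxcl2 (1769, here called chemokine mature) and a small interferon state (44). Only 4 of the 8 immature markers were 2-fold higher in the immature cells than in the other neutrophil-like cells. The chemokine state made up 26.7% (25.4 to 28.0) of GA and 28.3% (26.4 to 30.3) of control neutrophil-like cells.

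Levels are given as CPM, the UMIs of a gene as a share of all UMIs of a class in 1 library, scaled to 1000000 UMIs, with a 95% exact Poisson interval where a single level is discussed. CPM values were compared for the same gene across cells and not between genes, since they are not scaled by length. Bcl2a1b and Bcl2a1d are copies of 1 gene on chromosome 9, where a further copy, Bcl2a1a, is annotated. The first 300 coding bases of the 3 copies are printed because they show how little separates them (GENCODE vM21 on GRCm38, a single coding exon in each). Capitals in Bcl2a1d and Bcl2a1a mark bases that differ from Bcl2a1b, and capitals in Bcl2a1b mark bases at which either copy differs from it.
Bcl2a1b, chr9:89199360-89199659, plus strand: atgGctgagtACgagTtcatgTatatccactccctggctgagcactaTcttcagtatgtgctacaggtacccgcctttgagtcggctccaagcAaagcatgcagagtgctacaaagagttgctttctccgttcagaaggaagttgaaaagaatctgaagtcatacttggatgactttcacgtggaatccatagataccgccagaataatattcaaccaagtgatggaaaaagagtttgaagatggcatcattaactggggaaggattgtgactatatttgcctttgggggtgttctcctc
Bcl2a1d, chr9:88731420-88731719, minus strand: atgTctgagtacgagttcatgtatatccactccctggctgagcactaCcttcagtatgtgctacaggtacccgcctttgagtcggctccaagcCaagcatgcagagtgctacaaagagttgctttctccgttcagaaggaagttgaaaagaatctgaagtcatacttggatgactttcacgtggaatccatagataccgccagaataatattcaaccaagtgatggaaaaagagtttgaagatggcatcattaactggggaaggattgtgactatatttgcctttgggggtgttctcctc
Bcl2a1a, chr9:88957051-88957350, plus strand: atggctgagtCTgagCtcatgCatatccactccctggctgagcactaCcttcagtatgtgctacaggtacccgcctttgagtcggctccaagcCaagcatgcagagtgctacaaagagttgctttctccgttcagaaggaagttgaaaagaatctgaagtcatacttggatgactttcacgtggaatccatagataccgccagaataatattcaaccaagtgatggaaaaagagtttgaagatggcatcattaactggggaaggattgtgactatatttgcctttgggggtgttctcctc

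Across the whole coding sequence of 519 bases, Bcl2a1b differed from Bcl2a1d at 6 bases (98.8% identity) and from Bcl2a1a at 11 bases (97.9%). Reads of 3′ ends cannot always be placed on 1 copy: of all stretches of 90 bases in the annotated transcripts, 36.1% of those of Bcl2a1b, 61.6% of those of Bcl2a1d and 47.0% of those of Bcl2a1a occurred unchanged in another copy, and over the last 400 bases, where such reads fall, 34.1%, 60.8% and 27.0%. The count of each single copy was therefore uncertain, and the values of the copies below are read together. The starts of both members were also alike. The 186 bases before the annotated start are printed because both copies followed the same pattern across cells. Of 130 aligned pairs of bases, 129 were the same. Capitals mark GAGGAAGT, the core letters bound by PU.1, a transcription factor of myeloid cells (RefSeq promoter table, GRCm38.p6). Directly before these letters Bcl2a1b held an extra gaggaa that Bcl2a1d lacked.
Bcl2a1b, chr9:89199023-89199208, plus strand: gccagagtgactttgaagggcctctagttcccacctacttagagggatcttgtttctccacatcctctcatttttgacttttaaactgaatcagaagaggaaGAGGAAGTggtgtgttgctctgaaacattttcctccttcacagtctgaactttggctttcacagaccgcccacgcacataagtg
Bcl2a1d, chr9:88731915-88732100, minus strand: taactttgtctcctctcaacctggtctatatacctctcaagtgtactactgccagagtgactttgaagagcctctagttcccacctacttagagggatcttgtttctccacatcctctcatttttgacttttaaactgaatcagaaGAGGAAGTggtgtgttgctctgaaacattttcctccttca

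Searched on both strands in windows from 250 bases before to 50 bases after each start, GAGGAAGT occurred in 3.2% of 32851 mouse promoters. It occurred in the promoters of 4 of the 10 members, Bad, Bak1, Bcl2a1b and Bcl2a1d. The members had 16 promoters, so the share is per promoter and the count per gene, and they are not alike. Bcl2a1b and Bcl2a1d, copies of 1 gene, made up 2 of the 4. A match of letters is a description and not a binding site.

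The survival members differed in where they were highest. Highest class and leading class are meant here among the 12 classes with at least 50 cells in each library. That limit left out osteoclast-, endothelial-, erythroid- and basophil or mast-like cells, the interferon state and unnamed cells. In at least 1 library a class left out stood higher for some members, among them Bcl2l1, Mcl1, Bcl2a1b, Bak1, Bad, Bcl2l11 and Bbc3. Bcl2 (chr1:106538178-106714274, minus strand), the founding survival gene of the family, was highest in T or NK-like cells, at 490 CPM (459 to 522) in the GA library and 433 CPM (403 to 463) in control. Plasmacytoid dendritic-like cells followed, with 221 CPM in GA and 93.9 CPM in control, then hematopoietic progenitor-like cells with 54.2 and 55.6 CPM. The next classes, dendritic and B-like cells, lay between 21.2 and 27.6 CPM and their intervals overlapped. Mesenchymal-like cells held 6.42 CPM in GA and 8.14 CPM in control, and mature neutrophil-like cells (all mature states) 0.48 and 0.17 CPM, from 8 and 1 UMIs. Bcl2 thus ran from its highest level in T or NK-like cells to 8 and 1 UMIs in mature neutrophil-like cells. The leading 3 classes had the same order in both libraries. After each cell was thinned to 2000 UMIs, 47.6% (40.2 to 55.0) of GA and 41.5% (35.0 to 48.3) of control T or NK-like cells held a Bcl2 UMI. Without thinning the shares were 74.9% and 63.4%. Among chemokine mature neutrophil-like cells, 0.172% of GA and 0 of 571 control cells did after thinning, which allows a share of up to 0.525% in control. Unthinned median depths were 9225 and 7083 UMIs in the T or NK-like cells and 4904 and 3706 UMIs in the chemokine mature cells.

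Mcl1 (chr3:95658788-95663176, plus strand), a survival gene whose protein is known for its short life, was highest in chemokine mature neutrophil-like cells, at 1950 CPM (1915 to 1985) in GA and 1932 CPM (1875 to 1991) in control. Other mature neutrophil-like cells followed with 1218 and 1122 CPM, then macrophage or monocyte-like cells with 848 and 951 CPM and dendritic-like cells with 755 and 770 CPM. These 4 classes kept this order in both libraries with no overlap of neighbouring intervals. The interferon state, too small to rank with 24 GA and 20 control cells, held a still higher Mcl1 level in both libraries. Osteoblast-like cells stood lowest of the 12 classes ranked, with 171 CPM in GA and 183 CPM in control. Mcl1 was thus measured in every ranked class and was higher in mature neutrophils and myeloid cells than in bone-forming cells.

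Bcl2l1 (chr2:152780668-152831728, minus strand), which encodes BCL-XL, was also highest in chemokine mature neutrophil-like cells, at 367 CPM (352 to 382) in GA and 173 CPM (157 to 191) in control. Other mature neutrophil-like cells held 174 and 136 CPM and B-like cells 97.5 and 102 CPM. Mesenchymal-like cells held 8.17 and 7.80 CPM and osteoblast-like cells 5.34 and 5.88 CPM, with overlapping intervals. Erythroid-like cells, known to use BCL-XL as they mature, numbered 43 in GA and 58 in control. Their Bcl2l1 level was 174 CPM (136 to 219) from 72 UMIs in GA and 451 CPM (367 to 547) from 102 UMIs in control, and no Bcl2 UMI was found in them. Too few GA erythroid-like cells were present for them to enter the ranking of classes.

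Bcl2a1b (chr9:89199209-89207827, plus strand) was highest in dendritic-like cells, at 549 CPM (525 to 574) in GA and 671 CPM (651 to 692) in control. In control, chemokine mature neutrophil-like cells came next with 660 CPM (626 to 694), an interval that overlapped that of the dendritic-like cells, and macrophage or monocyte-like cells held 499 CPM. In GA these values were 265 and 291 CPM. T or NK-like cells held 119 CPM in GA and 151 CPM in control. Bcl2a1d (chr9:88723285-88731914, minus strand) was likewise highest in dendritic-like cells, with 283 and 410 CPM, followed in GA by the chemokine mature cells at 56.8 CPM and the macrophage or monocyte-like cells at 53.6 CPM, whose intervals overlapped. Background was estimated from genes that a class should lack, as the share of its UMIs that would come from free RNA with the profile of the whole library. In B-like cells Bcl2a1b, at 10.3 and 19.4 CPM, was above the 0.86 and 1.41 CPM that this background would give. Mesenchymal-like cells held 0.83 CPM of Bcl2a1b in GA and 1.59 CPM in control, beside a background of 0.91 and 1.08 CPM, and 0.123% and 0.290% of them had a Bcl2a1b UMI after thinning, against 33.8% and 47.6% of macrophage or monocyte-like cells. Plasmacytoid dendritic-like cells, although named dendritic, held 0 and 1 UMIs of Bcl2a1b, while the other dendritic-like cells held 1968 and 4324.

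**Figure D1:**
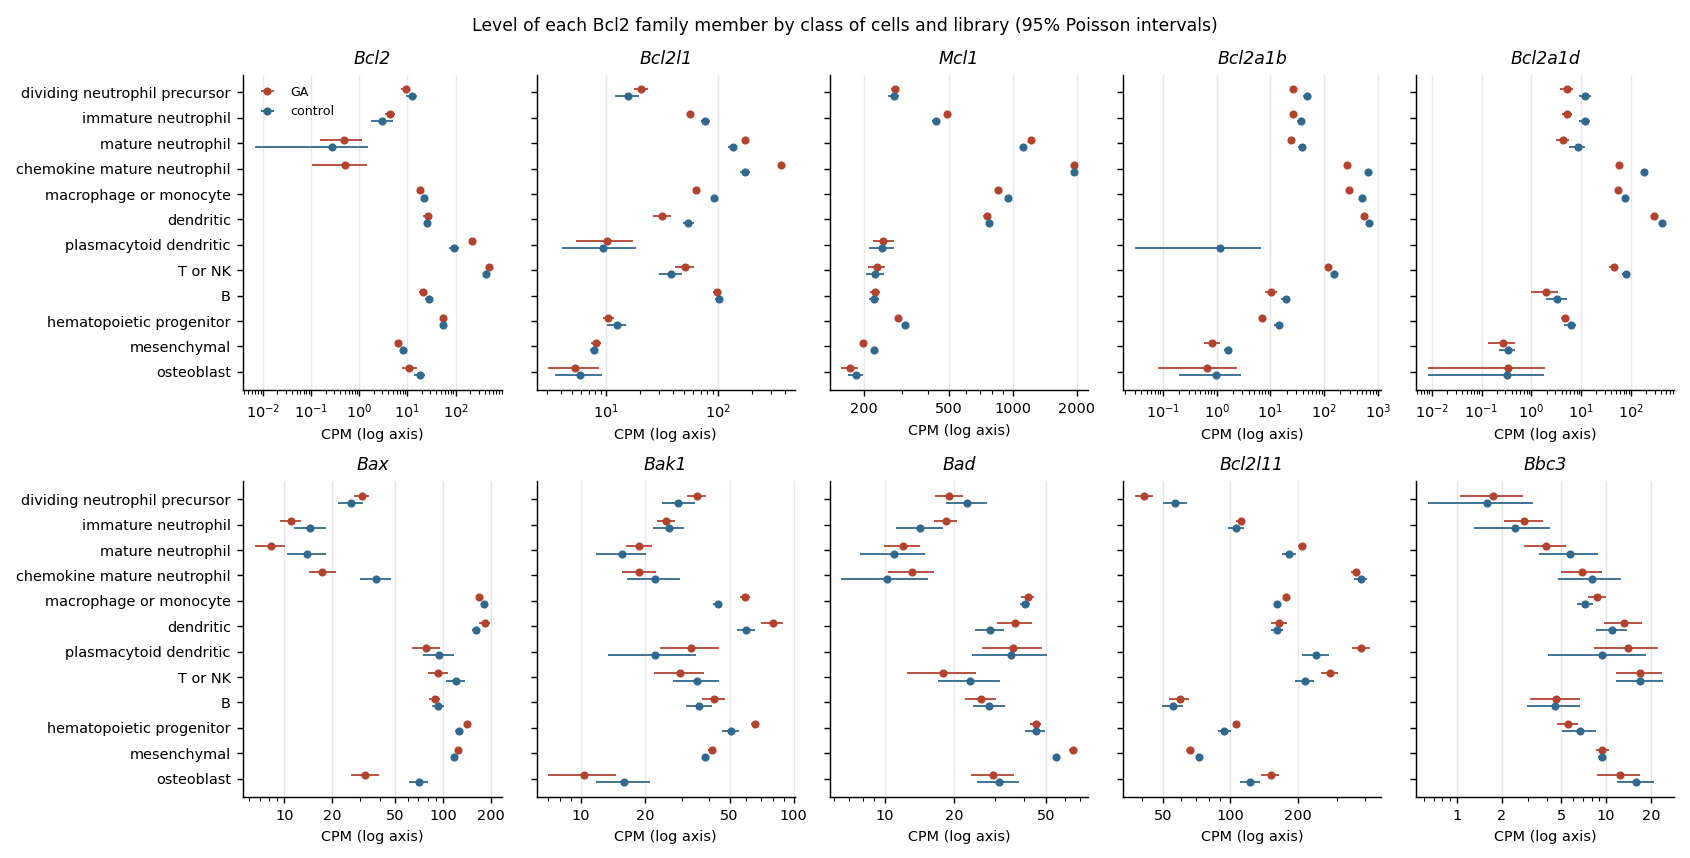
Level of each of the 10 members in 12 classes of cells, in CPM on a log axis, for the GA and control libraries; points are class sums, bars are 95% Poisson intervals and points at 0 UMIs are not drawn. Among these 12 classes, Bcl2 peaks in T or NK-like cells (490 and 433 CPM), Mcl1 and Bcl2l1 in chemokine mature neutrophil-like cells, and Bcl2a1b and Bcl2a1d in dendritic-like cells.

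The effectors had another distribution. Bax (chr7:45461697-45466898, minus strand), a pore former of the outer mitochondrial membrane, stood at 184 CPM in GA and 162 CPM in control dendritic-like cells, at 169 and 181 CPM in macrophage or monocyte-like cells, at 142 and 127 CPM in progenitor-like cells and at 124 and 117 CPM in mesenchymal-like cells. In all neutrophil-like cells it was 15.9 CPM in GA and 21.1 CPM in control. In both libraries each of the 4 ranked neutrophil states stood below every other ranked class. The 32.4 CPM of osteoblast-like cells in GA, however, overlapped the 30.7 CPM of the dividing precursors. Bak1 (chr17:27019810-27029009, minus strand), the other pore former, was highest in dendritic-like cells (79.6 and 59.8 CPM) and held 25.2 and 23.7 CPM in neutrophil-like cells. The other leukocyte classes ranked for Bax lay between 78.2 and 184 CPM in GA and between 93.1 and 181 CPM in control.

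Among the BH3-only genes, Bad (chr19:6941861-6951899, plus strand) encodes a protein held inactive by growth factor signalling. Of the ranked classes it was highest in mesenchymal-like cells, at 65.0 CPM in GA and 54.9 CPM in control. Progenitor-like cells were next at 44.9 and 44.9 CPM. Among classes too small to rank, osteoclast-like cells held 66.7 and 59.5 CPM and endothelial-like cells 74.5 and 33.5 CPM. Bcl2l11 (chr2:128126038-128162547, plus strand) encodes BIM, a BH3-only protein known for removing leukocytes that lose survival signals. It stood at 386 CPM in GA and 242 CPM in control plasmacytoid dendritic-like cells, at 364 and 385 CPM in chemokine mature neutrophil-like cells and at 279 and 216 CPM in T or NK-like cells. Its leading class therefore differed between the libraries, as did that of Bax, while the other 8 of the 10 members had the same leading class in both. For Bcl2l11 and Bax alike, the interval of the leading class in GA overlapped that of the next class. Bbc3 (chr7:16308393-16318205, plus strand), a target of p53, was low in every ranked class. Its highest level there was 16.9 CPM in GA and 17.0 CPM in control T or NK-like cells, from 33 and 32 UMIs. The intervals of most neighbouring classes overlapped. Erythroid-like cells, too few to rank, held 41.1 CPM from 17 UMIs in GA and 30.9 CPM from 7 UMIs in control.

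Within the B-like and progenitor-like cells, single clusters differed in the survival gene they held. Each cluster is named here by genes among its 10 leading genes, some of which clusters share. The B-like cluster led by Igkc and Ms4a1, the gene of the mature B cell antigen CD20, held Bcl2 at 114 CPM (92.5 to 138) in GA and 131 CPM (109 to 156) in control. In the B-like cluster led by Vpreb3, Ly6d and Cecr2, Bcl2 gave 1 UMI in GA and 0 in control. Bcl2l1 ran the other way. It was 15.7 CPM (8.60 to 26.4) in GA and 26.4 CPM (17.3 to 38.7) in control in the Ms4a1 cluster, and 246 CPM (216 to 279) and 241 CPM (208 to 276) in the Vpreb3, Ly6d and Cecr2 cluster. Another Vpreb3 cluster, led also by Mzb1 and Pou2af1, held 123 and 111 CPM of Bcl2l1, and the cluster led by Vpreb1, Igll1 and Dntt, genes of the earliest B cell stages, held 29.2 and 49.4 CPM. In both libraries, then, the Ms4a1 cluster was the higher of these in Bcl2 and the Vpreb3, Ly6d and Cecr2 cluster the higher in Bcl2l1. These values describe clusters of single libraries and were not tested.

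Progenitor-like cells also separated. The cluster led by Mcpt8, Dntt and Flt3 held Bcl2 at 143 CPM in GA and 140 CPM in control, the cluster led by Prtn3, F13a1 and Ccr2 held 48.3 and 45.6 CPM, and the cluster led by Elane, Fcnb and Camp, genes of early granulocytes, held 11.5 and 18.3 CPM. Bcl2l11 followed the same order, with 344 and 257 CPM, 84.2 and 75.2 CPM, and 8.12 and 21.4 CPM. Bcl2 and Bcl2l11 were thus both lowest in the progenitor-like cluster with granule genes.

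**Figure D2:**
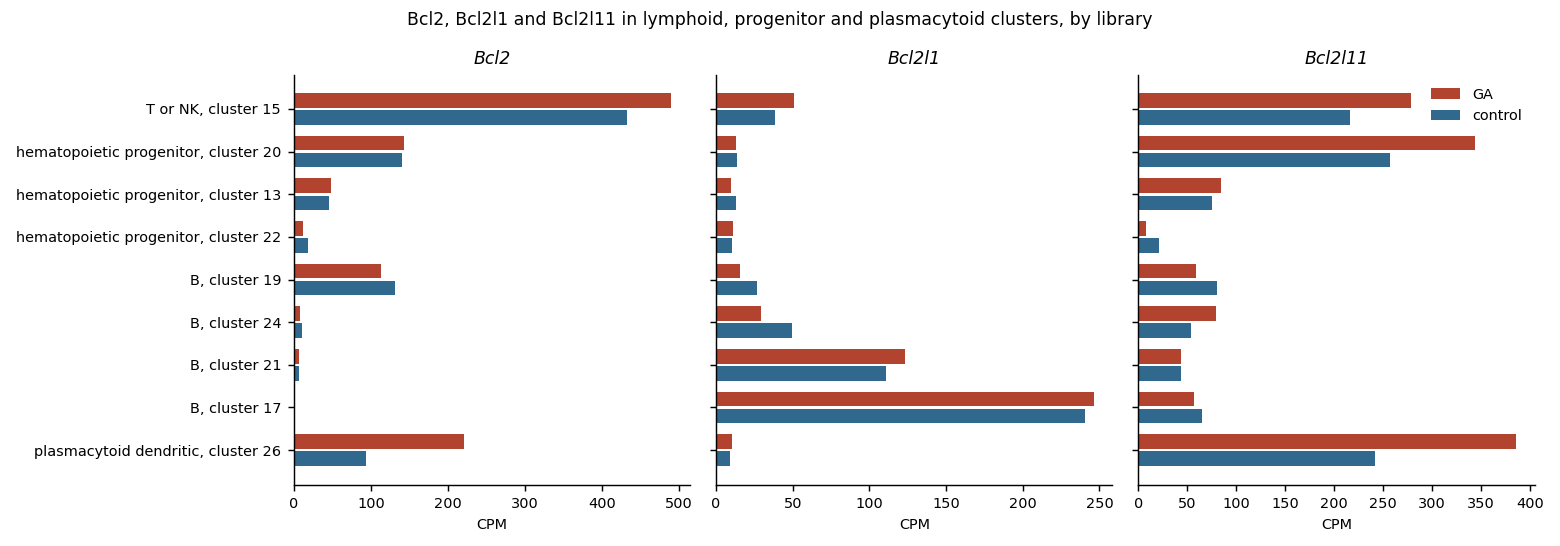
Bcl2, Bcl2l1 and Bcl2l11 in the clusters of T or NK-, progenitor-, B- and plasmacytoid dendritic-like cells, in CPM, with 1 bar for each library. B cluster 19 is led by Igkc and Ms4a1, 17 by Vpreb3, Ly6d and Cecr2, 21 by Vpreb3 and Mzb1 and 24 by Vpreb1 and Igll1. Progenitor cluster 20 is led by Mcpt8 and Dntt, 13 by F13a1 and Ccr2 and 22 by Elane and Camp. In B cluster 17 Bcl2l1 is high and Bcl2 is near 0.

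The next comparison asked how the members differed with neutrophil maturity. It set all mature states together against immature neutrophil-like cells in each library, and counted members past 2-fold in the same direction in both. Of the 10 members, 4 were higher in mature cells (Mcl1, Bcl2a1b, Bcl2a1d and Bcl2l11), 1 was lower (Bcl2) and 5 were neither. These 5 of 10 stood against 25.1% of 9840 genes past 2-fold in either direction. The median log2 difference of the members was 1.20, against 0.05 over all genes. The states were named from the expression of the same cells, so these are descriptions without a test.

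Mcl1 was higher at every step. Dividing precursors held 278 CPM in GA and 275 CPM in control, immature cells 489 and 435 CPM, mature cells 1218 and 1122 CPM, and chemokine mature cells 1950 and 1932 CPM. The mature states together exceeded the immature cells 3.05-fold in GA and 3.31-fold in control. Bcl2l11, the BH3-only gene for BIM, had the same direction as the survival gene Mcl1: it went from 40.9 and 56.4 CPM in dividing precursors to 111 and 106 CPM in immature, 210 and 183 CPM in mature and 364 and 385 CPM in chemokine mature cells. The log2 difference of mature over immature was 1.27 (1.19 to 1.35) in GA and 1.29 (1.15 to 1.43) in control. Bcl2 went the opposite way, from 9.29 and 12.2 CPM in dividing precursors to 4.39 and 3.02 CPM in immature and 0.48 and 0.17 CPM in all mature cells, with log2 differences of mature over immature of -3.18 (-4.45 to -2.12) in GA and -4.18 (-9.57 to -1.49) in control, the latter resting on 1 UMI. The mature levels were at or below the 0.48 and 0.36 CPM that background would give, and with background subtracted the GA value was -10.07, so the size of these differences was not fixed by the data.

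Bcl2l1 passed 2-fold only in the GA library. Its level was 56.8 CPM in immature and 244 CPM in all mature GA cells, a 4.30-fold difference, and 77.3 and 149 CPM in control, a 1.92-fold difference. Bax was 11.0 and 11.6 CPM in immature and mature GA cells and 14.6 and 23.1 CPM in control. Bak1 (log2 difference -0.41 in GA and -0.52 in control) and Bad (-0.57 and -0.38) leaned to the immature cells without passing 2-fold. Bbc3 was 2.84 and 5.02 CPM in GA and 2.46 and 6.53 CPM in control, on 181 UMIs in all.

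Against dividing precursors the differences were larger. There, 7 of the 10 members passed 2-fold in both libraries, beside 52.9% of 10203 genes. Bcl2l1, Mcl1, Bcl2a1b, Bcl2a1d, Bcl2l11 and Bbc3 were higher in mature cells and Bcl2 was lower. Bcl2l1 stood 11.8-fold higher in GA and 9.51-fold higher in control, the widest of the 6. Bcl2a1b and Bcl2a1d were not higher outside the chemokine and interferon states. Mature cells held 24.1 and 38.1 CPM of Bcl2a1b there, against 26.3 and 47.1 CPM in dividing precursors. For Bcl2a1d the values were 4.24 and 8.49 CPM against 5.09 and 11.8 CPM. No share over all genes was computed without those states. The effectors were lower in mature cells without passing 2-fold in both libraries. Bax was 30.7 CPM in dividing and 11.6 CPM in all mature cells of GA, and 26.3 and 23.1 CPM in control. Bak1 was 35.1 and 19.0 CPM in GA and 28.8 and 18.1 CPM in control.

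**Figure D3:**
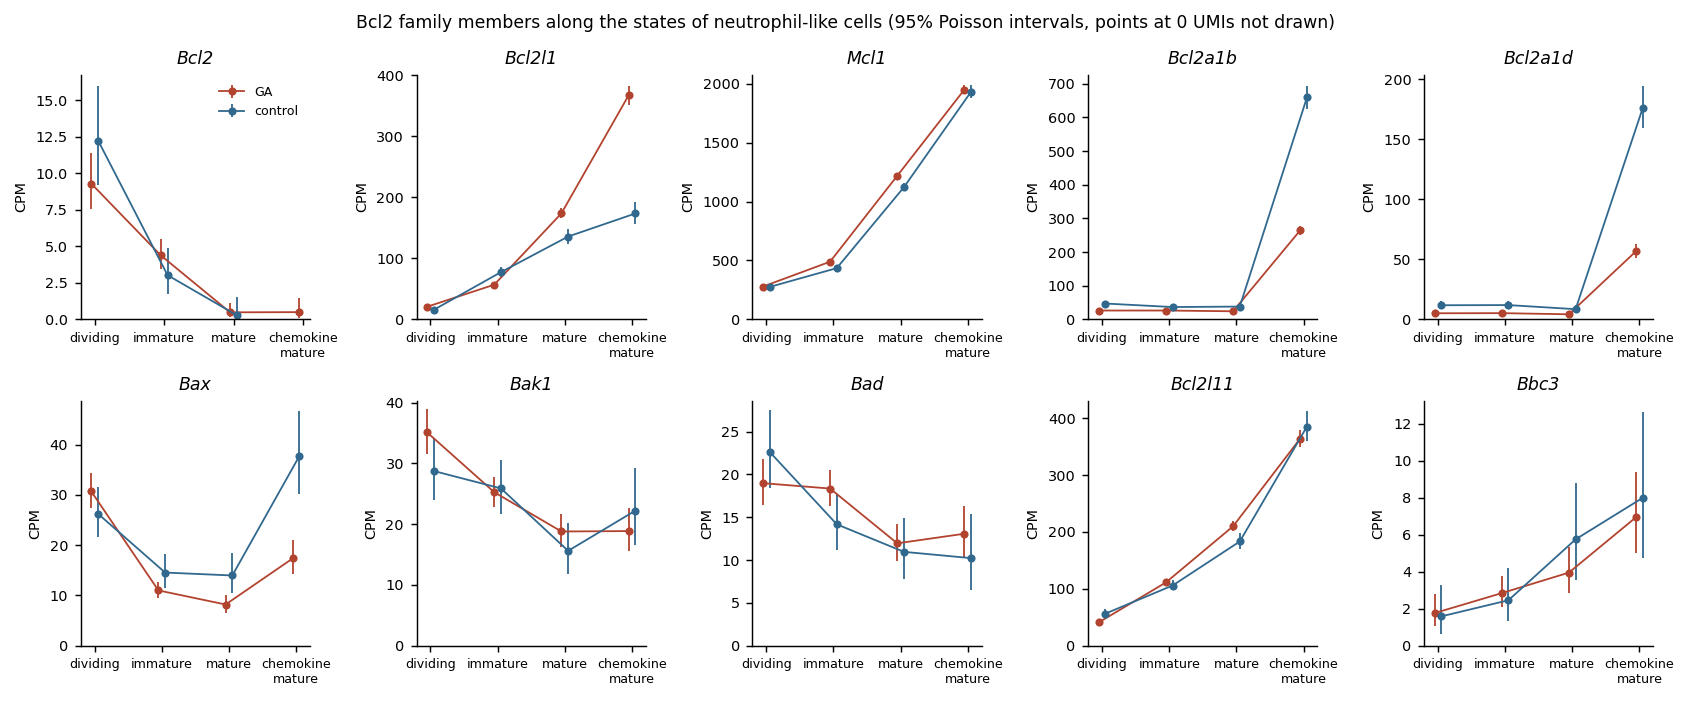
Level of each member, in CPM, in dividing, immature, mature and chemokine mature neutrophil-like cells of the GA and control libraries; bars are 95% Poisson intervals, lines join states for reading only, and no state is a time point. Mcl1 and Bcl2l11 step upward through all 4 states in both libraries, Bcl2 is highest in dividing precursors, and Bcl2a1b and Bcl2a1d stand out in the chemokine mature state.

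Both Bcl2a1 copies were high in the chemokine state and not in the other large states. Bcl2a1b was 26.3 CPM in dividing, 26.3 CPM in immature, 24.1 CPM in mature and 265 CPM in chemokine mature GA cells, and 47.1, 36.7, 38.1 and 660 CPM in control. Bcl2a1d had the same shape, at 5.09, 5.19, 4.24 and 56.8 CPM in GA and 11.8, 11.9, 8.49 and 176 CPM in control. With the chemokine and interferon states left out, neither copy was 2-fold higher in mature than in immature cells in either library. Bcl2l11 did not pass then either, at 210 CPM in mature and 111 CPM in immature GA cells and 183 and 106 CPM in control. The count of members past 2-fold was then 2 (Mcl1 and Bcl2) rather than 5, and no share over all genes was computed for that setting. Chemokine mature cells exceeded other mature cells 11.0-fold in GA and 17.3-fold in control for Bcl2a1b, and 13.4-fold and 20.7-fold for Bcl2a1d. Together with Bax, which was 2.12-fold and 2.71-fold higher, these were 3 of 9 members past 2-fold in both libraries, beside 11.9% of 8354 genes. Mcl1 stood 1.60-fold and 1.72-fold higher and Bcl2l11 1.74-fold and 2.10-fold higher. Bcl2l1 was 2.11-fold higher in GA but 1.28-fold higher in control.

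The chemokine state held 2 subclusters, and they differed in Bcl2l1. The subcluster led by Wfdc17, Cxcl3, Il1a and Ccl4 held Bcl2l1 at 593 CPM (566 to 621) in GA and 250 CPM (224 to 279) in control. The other, led by Clec4n, Ccl4, Csf1, Egr3 and Egr2, held 122 CPM (109 to 135) and 69.8 CPM (54.1 to 88.7). For Bcl2a1b the values were 295 CPM (277 to 315) and 542 CPM (502 to 583) in the first and 232 CPM (214 to 250) and 818 CPM (762 to 878) in the second. Both subclusters thus had more Bcl2l1 and less Bcl2a1b in the GA library, while Mcl1 was between 1841 and 2056 CPM in all 4 values.

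**Figure D4:**
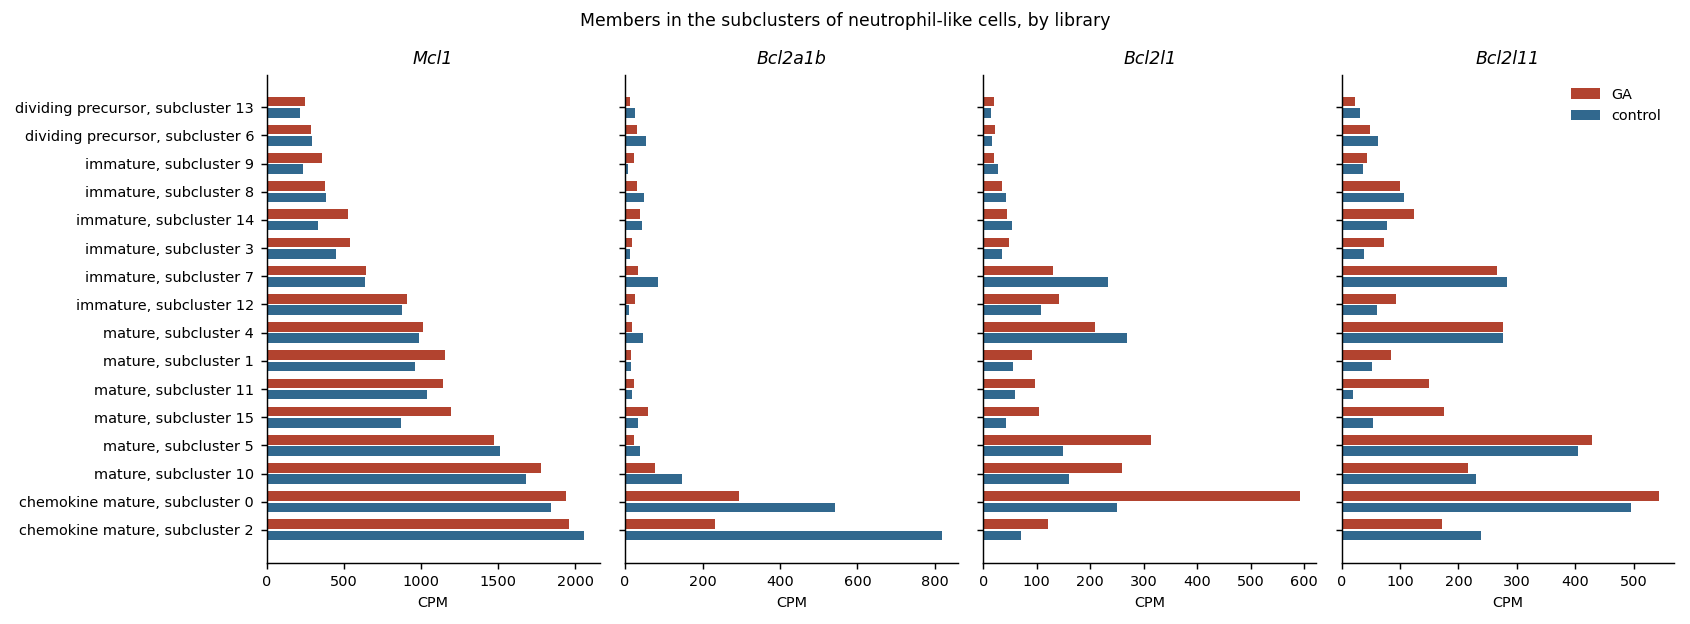
Mcl1, Bcl2a1b, Bcl2l1 and Bcl2l11 in the subclusters of neutrophil-like cells, in CPM, with 1 bar for each library and subclusters grouped by state. Bcl2a1b is concentrated in the 2 chemokine mature subclusters and is lower there in GA, and Bcl2l1 reaches 593 CPM in GA chemokine mature subcluster 0 against 250 CPM in control.

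The comparison of GA with control asked how these genes differed between mice given the TrkA agonist and mice given the vehicle. A member was counted when it had at least 50 UMIs in both libraries together and a ratio past 1.5-fold. Over all kept cells, 2 of 10 members passed, Bcl2a1b (75.7 CPM in GA and 143 CPM in control, log2 ratio -0.91, interval -0.94 to -0.88) and Bcl2a1d (19.1 and 34.6 CPM, -0.86, -0.92 to -0.79), beside 31.4% of 18335 genes. Bcl2l1 was higher in GA over all cells, at 52.3 against 38.2 CPM (log2 ratio 0.45, 0.41 to 0.50), as was Bcl2 at 25.3 against 19.7 CPM (0.36, 0.30 to 0.43), although the Bcl2 value was -0.17 as a mean over cells and -0.07 after thinning. The make-up of the cells differed, however. Class shares were then fixed at their mean over both libraries, as shares of UMIs and not of cells. At these shares the log2 ratio was -0.01 for Bcl2l1 and -0.03 for Bcl2, and -0.72 for Bcl2a1b and -0.66 for Bcl2a1d. Of the other 6 members, Mcl1 (-0.07), Bax (0.02), Bak1 (0.23), Bad (0.16), Bcl2l11 (0.06) and Bbc3 (0.05) were all within 1.5-fold. The lower level of the Bcl2a1 copies in GA was thus present at equal class shares (-0.91 to -0.57 for Bcl2a1b and -0.89 to -0.56 for Bcl2a1d over 16 alternatives). The values of Bcl2l1 and Bcl2 at equal shares were less settled, since over the same alternatives they ran from -0.57 to 0.40 for Bcl2l1, which kept its sign in 8 of 16, and from -0.11 to 0.39 for Bcl2. Their highest values came from thinning the cells to 2000 UMIs (Bcl2l1) and from a mean over cells (Bcl2), and the mean over cells also gave the lowest value of Bcl2l1. Neutrophil-like cells supplied 61.5% of Bcl2l1 UMIs in GA and 19.5% in control, and macrophage or monocyte-like cells 17.4% and 48.8%.

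In neutrophil-like cells, 2 of 10 members passed 1.5-fold, both lower in GA, beside 11.7% of 10888 genes. These 2 were the Bcl2a1 copies, whose reads cannot be fully told apart. Bcl2a1b was 60.8 CPM in GA and 131 CPM in control (log2 ratio -1.10, -1.19 to -1.02), and Bcl2a1d was 12.3 and 35.0 CPM (-1.51, -1.68 to -1.33). Bcl2l1 was higher in GA at 120 against 87.1 CPM (0.47, 0.38 to 0.55) without passing 1.5-fold. Mcl1 was 825 and 772 CPM and Bcl2l11 155 and 150 CPM. When the UMI shares of the neutrophil states were fixed, Bcl2a1b in GA was 0.478 of the control level, against 0.466 without fixing. Bcl2l1 was 1.35 times the control level, against 1.38.

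By state, the number of members past 1.5-fold was 2 of 9 in dividing precursors (Bcl2a1b and Bcl2a1d lower in GA, beside 7.40% of genes), 1 of 10 in immature cells (Bcl2a1d lower, beside 10.9%), 4 of 9 in all mature states together (beside 14.9%) and 4 of 9 in the chemokine state (beside 19.7%). In both mature groupings the 4 were Bcl2l1, higher in GA, and Bcl2a1b, Bcl2a1d and Bax, lower in GA. Over all mature states Bcl2l1 was 244 CPM in GA and 149 CPM in control (log2 ratio 0.72). The values that follow are those of the chemokine state. Bcl2l1 was 367 CPM in GA and 173 CPM in control, a 2.12-fold higher level (1.90 to 2.36). Bcl2a1b was 265 and 660 CPM, 2.49-fold lower in GA (2.32 to 2.67), Bcl2a1d was 56.8 and 176 CPM (log2 ratio -1.63, -1.85 to -1.42), and Bax was 17.4 and 37.8 CPM (-1.12, -1.55 to -0.69) on 105 and 85 UMIs. Mcl1 did not share this: 1950 and 1932 CPM gave a ratio of 1.01 (0.974 to 1.05). Bcl2l1 and the Bcl2a1 copies, survival genes of the same cells, thus differed in opposite directions between the libraries, and Mcl1 stood close to 1. After thinning to 2000 UMIs a cell, 34.6% (31.8 to 37.4) of GA and 18.9% (15.8 to 22.4) of control chemokine mature cells held a Bcl2l1 UMI, and 29.6% (27.0 to 32.3) and 51.0% (46.8 to 55.1) held a Bcl2a1b UMI. Without thinning the shares were 50.3% and 25.2% for Bcl2l1 and 44.3% and 63.6% for Bcl2a1b.

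Other measures differed between the libraries in the same cells. The granule genes S100a8, S100a9, Camp, Ngp and Ltf summed to 152440 CPM in GA and 91203 CPM in control chemokine mature cells, the median depth was 4904 and 3706 UMIs, and the median log2 ratio over all genes tested there was -0.19. Their part in the result was not tested. The interferon state went against the others for Bcl2a1b, with 614 CPM in 24 GA cells and 311 CPM in 20 control cells, from 65 and 23 UMIs (log2 ratio 0.98, 0.27 to 1.73). In immature cells Bcl2l1 was lower in GA, at 56.8 against 77.3 CPM (log2 ratio -0.45, -0.61 to -0.27), the reverse of all mature cells together. Subclusters went both ways within the immature state and within the mature state, while both chemokine mature subclusters were higher in GA. Of the immature subclusters, subcluster 7 was lower in GA (130 and 233 CPM, -0.84) and subcluster 3, the one with the most cells, was higher (48.0 and 34.2 CPM, 0.49, 0.02 to 0.99), and the mature subcluster 4 was lower (210 and 268 CPM, -0.35, -0.57 to -0.14). The difference between the states was not tested.

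Macrophage or monocyte-like cells had 1 of 10 members past 1.5-fold, Bcl2a1b, beside 12.3% of 12399 genes. It was 291 CPM in GA and 499 CPM in control, 1.72-fold lower in GA (1.67 to 1.77). All 3 clusters of this class leaned the same way: 319 and 465 CPM in the cluster led by Cd36 and Arg1, 448 and 620 CPM in the cluster led by C1qc and Ms4a7, and 64.1 and 159 CPM in the cluster led by Ccr2 and F13a1, genes of monocytes. The ratios of the Cd36 and C1qc clusters were within 1.5-fold (log2 -0.54 and -0.47) and that of the Ccr2 cluster was not (-1.31). That cluster held 344 of the 1071 GA cells and 302 of the 1653 control cells of the class. With a Leiden resolution of 0.5 the log2 ratio of the class was -0.52, and with cells from 2000 UMIs it was -0.51, both within 1.5-fold. Bcl2l1 was 63.1 and 92.1 CPM in the class (log2 ratio -0.54, -0.63 to -0.46), but 63.1 and 59.6 CPM in the Cd36 cluster (0.08, -0.06 to 0.23), 109 and 148 CPM in the C1qc cluster (-0.44) and 10.2 and 19.9 CPM in the Ccr2 cluster (-0.96). Mcl1 was 848 and 951 CPM (-0.17, -0.19 to -0.14), lower in GA, while Bak1 was higher in GA at 59.1 against 44.1 CPM (0.42, 0.32 to 0.53).

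Dendritic-like cells had 1 of 10 members past 1.5-fold, Bcl2l1, beside 11.5% of 9310 genes. It was 31.8 CPM in GA and 54.5 CPM in control, from 114 and 351 UMIs, 1.71-fold lower in GA (1.38 to 2.13). Bcl2a1b was 549 and 671 CPM there (log2 ratio -0.29, -0.37 to -0.21), against -0.78 in macrophage or monocyte-like and -1.10 in neutrophil-like cells; differences between classes were not tested. Over all clusters, Bcl2a1b was lower in GA in 21 of the 23 clusters with at least 50 of its UMIs. The exceptions were the osteoclast-like cluster (118 and 108 CPM) and a cluster left without a name (139 and 100 CPM). Among the 23 were mesenchymal-like clusters near the background given above, at 1.01 and 1.64, 0.77 and 1.75, and 0.69 and 1.22 CPM. No such count is given for other genes, so the 21 cannot be read against a share over all genes.

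In B-, T or NK-, progenitor- and mesenchymal-like cells, 1 member each passed 1.5-fold. In B-like cells it was Bcl2a1b, 1 of 9 members beside 5.00% of genes, at 10.3 and 19.4 CPM. Most of these UMIs (56 of 64 in GA and 87 of 111 in control) came from the Ms4a1 and Igkc cluster, 131 of the GA and 168 of the control B-like cells, where Bcl2a1b was 63.0 and 88.4 CPM and within 1.5-fold (log2 ratio -0.49, with an interval that included 0). In T or NK-like cells it was Bcl2a1d, 1 of 10 beside 9.18%, at 45.0 and 77.0 CPM, while Bcl2 was 490 and 433 CPM (log2 ratio 0.18, 0.04 to 0.32). In progenitor-like cells it was Bcl2a1b, 1 of 10 beside 9.86%, at 7.00 and 14.1 CPM, although the Prtn3, F13a1 and Ccr2 cluster held most GA cells of this class (348 of 617) and the Mcpt8, Dntt and Flt3 cluster was the largest in control (170 of 391). In mesenchymal-like cells it was Bcl2a1b again, 1 of 9 beside 13.2%, at 0.83 and 1.59 CPM, levels close to the background given above. Plasmacytoid dendritic-like cells, 76 in GA and 71 in control, held 2.36-fold more Bcl2 in GA (1.83 to 3.06), from 283 and 80 UMIs, and also more Bcl2l11, at 386 against 242 CPM (log2 ratio 0.67, 0.44 to 0.91). After thinning, 18.4% (10.5 to 29.0) of these GA cells and 14.1% (6.97 to 24.4) of the control cells held a Bcl2 UMI, intervals that overlapped. Osteoblast-like cells, 80 and 73, held 11.0 and 18.0 CPM of Bcl2 (-0.70, -1.37 to -0.06) and 32.4 and 70.5 CPM of Bax (-1.12, -1.48 to -0.77). No share of all genes past 1.5-fold was computed for plasmacytoid dendritic- or osteoblast-like cells.

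**Figure D5:**
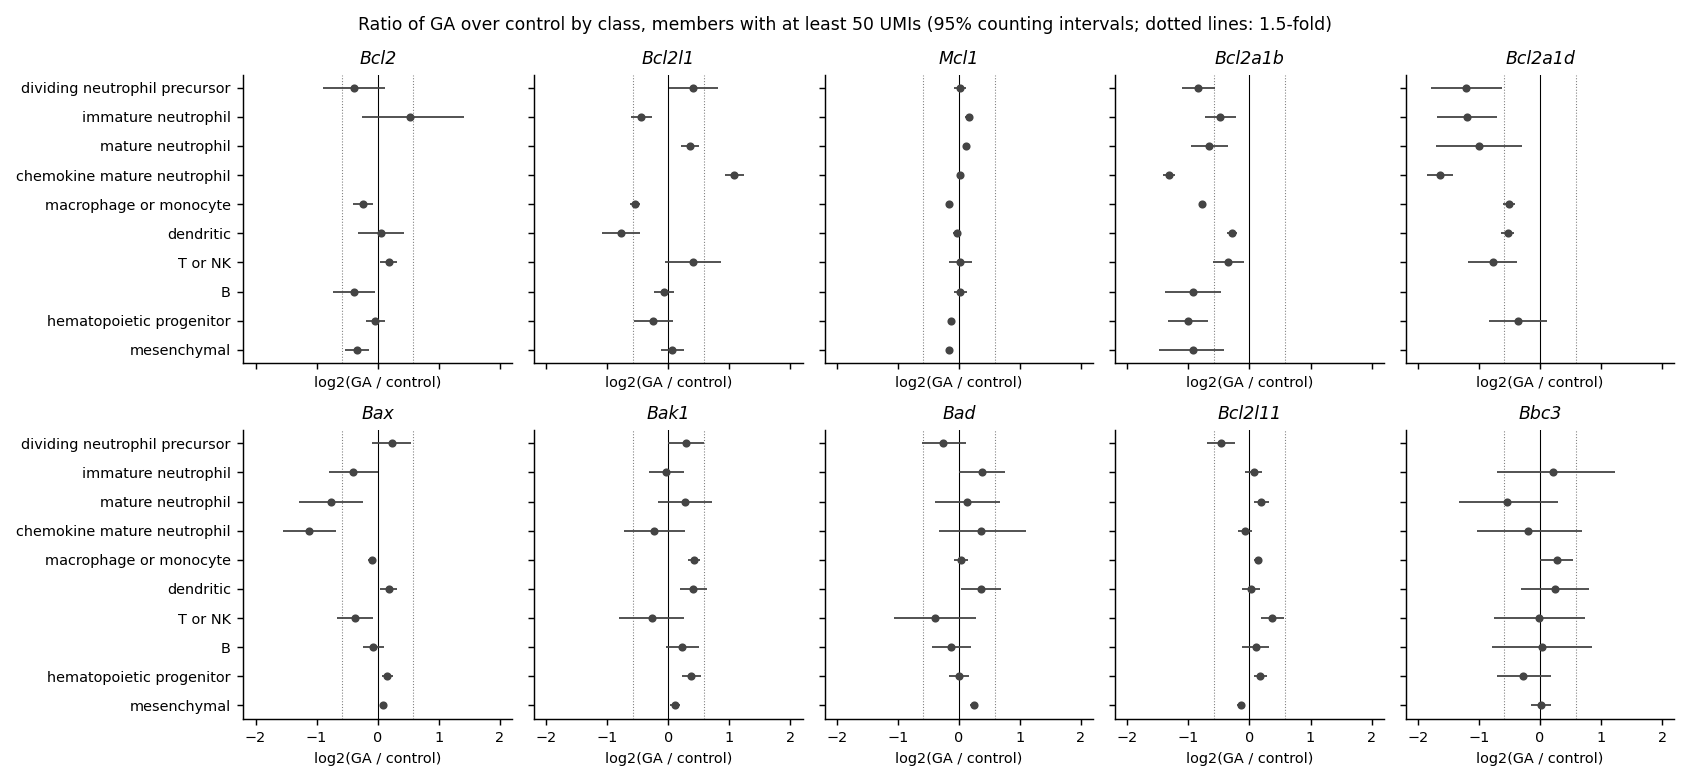
Log2 ratio of GA over control for each member in 10 classes of cells, with 95% counting intervals; dotted lines mark 1.5-fold and values with fewer than 50 UMIs are not drawn. Bcl2a1b lies left of 0 in all 10 classes, Mcl1 lies near 0 in all of them, and Bcl2l1 lies right of 0 in chemokine mature neutrophil-like cells (1.08) and left of it in dendritic-like cells (-0.78).

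Other genes of the pathway were read from lists drawn up by function. Genes past the limit are named although their choice followed from their values. In neutrophil-like cells, 10 of 16 other Bcl2 family genes had enough UMIs, of which 2 were past 1.5-fold, both lower in GA, beside 11.7% of 10888 genes past it and 9.99% past it and lower. Bcl2a1a, the further copy of Bcl2a1b, was 6.73 CPM in GA and 19.1 CPM in control (log2 ratio -1.50), and Pmaip1, which encodes the BH3-only protein NOXA that binds MCL1, was 9.48 and 19.6 CPM (-1.05). At the other end of this list stood the mitophagy receptors Bnip3 and Bnip3l, at 13.6 and 13.6 CPM and at 165 and 167 CPM. None of 14 genes for the apoptosome and caspases passed. Casp2, a caspase of the DNA damage response, was 5.19 and 4.40 CPM and Vdac2, a channel of the outer mitochondrial membrane known to bind BAK, 143 and 136 CPM, while Cycs (cytochrome c) was 58.3 and 70.9 CPM and the initiator Casp8 21.9 and 24.9 CPM. Of 8 inhibitors of apoptosis only Naip6 passed, at 3.05 and 4.78 CPM. The others by the naming rule, Naip5 (8.94 and 10.6 CPM), Birc5 (72.0 and 75.1 CPM) and the caspase inhibitor Xiap (79.6 and 80.0 CPM), did not.

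Of 10 death receptor and ligand genes, Tnf alone passed in neutrophil-like cells, lower in GA at 44.9 against 72.9 CPM. Tnf is itself one of the markers of the chemokine state. The necroptosis kinase gene Ripk3 was 3.19 and 4.21 CPM, Tradd 6.76 and 6.82 CPM and the TNF receptor gene Tnfrsf1a 161 and 149 CPM. No survival cytokine receptor of 7 passed. Il3ra was 7.17 and 5.61 CPM, the shared receptor subunit Csf2rb 151 and 139 CPM, Cxcr4, a receptor that holds neutrophils in marrow, 136 and 154 CPM, and Kit 7.64 and 10.1 CPM. In list medians, neutrophil-like cells gave log2 ratios of -0.05 for the members, -0.35 for other Bcl2 family genes, -0.06 for apoptosome and caspase genes, -0.22 for inhibitors of apoptosis, -0.12 for death receptors and ligands and -0.03 for cytokine receptors, beside -0.15 over all genes tested.

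In macrophage or monocyte-like cells, of 9 other Bcl2 family genes, 2 were past 1.5-fold and both were higher in GA, the BH3-only genes Bmf (5.59 and 3.52 CPM) and Pmaip1, beside 12.3% of 12399 genes past it and 7.74% past it and higher. Bnip3 had the lowest ratio, at 45.9 and 68.7 CPM. None of 15 apoptosome and caspase genes passed, and Vdac2 had the lowest ratio of GA over control, at 216 and 241 CPM. Birc5, which encodes survivin and is known as a gene of dividing cells, was 32.5 CPM in GA and 6.46 CPM in control, and with Naip1 made 2 of 9 inhibitors higher in GA. The lowest inhibitor, Naip5, was 17.8 and 17.5 CPM. Tnfsf10 was the 1 of 10 death receptor and ligand genes past 1.5-fold, higher in GA. In this list Mlkl was 15.2 and 10.1 CPM and Tnf 170 and 225 CPM. None of 8 cytokine receptors passed, with Csf3r at 77.3 and 62.0 CPM and Il7r at 64.3 and 90.9 CPM.

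In mesenchymal-like cells, 1 of 11 other Bcl2 family genes passed, Bcl2l15, higher in GA, beside 13.2% of 15628 genes. Bcl2l13 was 22.2 and 19.6 CPM and Bmf 1.78 and 2.33 CPM. None of 15 apoptosome and caspase genes passed (Casp2 at 5.32 and 4.50 CPM, the apoptosome scaffold Apaf1 at 74.5 and 88.1 CPM) and none of 6 inhibitors (Birc3 at 80.2 and 76.8 CPM, Birc5 at 37.3 and 40.8 CPM). Tnfsf10 was the only 1 of 11 death receptor and ligand genes past 1.5-fold, with Mlkl at 18.9 and 12.9 CPM and Cflar, a brake on caspase 8, at 51.8 and 55.2 CPM. Of 8 cytokine receptors, Csf3r was higher in GA (5.05 and 1.77 CPM) and Kit lower, and Csf2ra was 7.87 and 7.62 CPM. Csf3r is a neutrophil gene, and the granule genes summed to 1085 CPM in GA and 203 CPM in control mesenchymal-like cells. Their part in the value was not tested.

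Across neutrophil maturity, all mature states together were again set against immature cells. Of 9 other Bcl2 family genes, 5 were past 2-fold higher in both libraries (Bcl2a1a, Bid, Bmf, Pmaip1 and Bnip3). Lower in both was 1 (Bcl2l12), beside 14.5% higher and 10.6% lower of 9840 genes. Outside the chemokine and interferon states, mature cells held 1.83 CPM of Bcl2a1a in GA and 2.74 CPM in control. Immature cells held 0.74 and 3.59 CPM, so Bcl2a1a was not higher in control. Bid, Bmf, Pmaip1 and Bnip3 were each still higher than in immature cells in both libraries. This list was not counted again without those states. Pmaip1 went from 1.36 to 19.8 CPM in GA and from 1.89 to 46.5 CPM in control, the widest of the list by the mean log2 difference. In GA alone Bcl2a1a was wider, from 0.74 to 15.9 CPM. Of 14 apoptosome and caspase genes 0 were past 2-fold higher, with Casp9 the highest at a mean log2 difference of 0.34, and Cycs was past 2-fold lower. Inhibitors of apoptosis gave 2 higher and 2 lower of 8. Birc3 went from 105 to 302 CPM in GA and from 129 to 363 CPM in control, and Birc5 from 7.48 to 1.45 CPM and from 7.18 to 1.00 CPM. Outside the chemokine and interferon states, mature cells held 193 and 200 CPM of Birc3, within 2-fold of the immature level. Fas, the death receptor, went from 33.4 to 150 CPM in GA and from 42.5 to 195 CPM in control, and with Tnfrsf1a made 2 of 9 of its list higher, with Mlkl lower. Cytokine receptors gave 4 higher of 7, with Csf1r at a mean log2 difference of 3.14 and Kit lowest at -2.22. Of the BH3-only genes, Bcl2l11, Bid, Bmf and Pmaip1 were past 2-fold higher in all mature cells in both libraries. Bcl2l11 did not pass with the chemokine and interferon states left out. Bad gave log2 differences of -0.57 in GA and -0.38 in control and Bbc3 gave 0.82 and 1.41. The list median of other Bcl2 family genes was 1.36 beside 0.05 over all genes.

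The genes whose levels most resembled a member were found by Pearson correlation of log2(CPM + 1) over 24 sums, those of 12 classes in each of the 2 libraries. The sums share their libraries and cell types, so these are descriptions. Bcl2a1b was most like Bcl2a1d (0.97), whose reads cannot be fully told apart from its own, then Tank (0.953), a regulator of the kinases TBK1 and IKK, and the chemokine-binding receptor gene Ccrl2 (0.925). Bcl2 was most like Dcp1b (0.928), Hadhb (0.915) and Zpbp (0.908). Bcl2l1 was most like Gtdc1 (0.915), Pik3c2a (0.904) and Retreg1 (0.901), and Bax most like Golga7 (0.963), 2210016F16Rik (0.962) and St13 (0.962). Among the members, Bcl2 and Mcl1 gave -0.61 and Bcl2l1 and Bad -0.70.

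Each comparison of GA with control rests on 1 pooled library a group, so differences between the mice or the handling of the pools cannot be told apart from the treatment.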

How the data were processed

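Single-cell RNA was measured in 1 library of GA mice and 1 of control mice. The authors deposited, per the file headers, raw UMI counts per gene and cell barcode from Cell Ranger (7.0.1 in the header), aligned to mm10 per the submitters' processing notes. Whether intronic reads were counted is not given in the sources used here.

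Cells with 500 to 140000 UMIs, 200 to 9500 genes and at most 15% mitochondrial UMIs were kept, which left 9036 GA and 8093 control cells. A Scrublet-style score, rewritten in Python, marked 0.097% and 0.413% of barcodes at its own threshold, under 0.5%, so the highest scores were removed at 0.8% per 1000 barcodes (648 and 564 cells within limits). Pearson residuals of 2000 variable genes, without the listed genes, gave 50 components, corrected over the 2 libraries by a Harmony procedure rewritten in Python and clustered by Leiden (resolution 1, 15 neighbours). Clusters were named from marker lists. The quantile limits of naming (0.6, and 0.3 within neutrophils), the rule of 4 markers for reassigning subclusters and the limit of 5000 CPM of collagen genes, which left 453 cells of 2 clusters without a name, were set after the data were seen. The members and lists were chosen with earlier results of these data known.

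UMI sums of each class and library were scaled to CPM. Ratios carry exact conditional binomial intervals, levels exact Poisson and shares exact binomial (Clopper-Pearson) intervals, all at 95%. They cover counting error only, and the ratio code was tested on simulated data. A share of 0 is given with the limit that 3 counts allow. No test was run between groups. Shares of cells with a UMI were taken after thinning to 2000 UMIs, and shallower cells were left out. Genes named were the members, then in each list the 2 highest and 2 lowest ratios in neutrophil-like cells and the single highest and lowest in macrophage or monocyte-like and mesenchymal-like cells (at least 200 UMIs), the highest and lowest by maturity, and for 4 members the 3 genes most like each. Some genes that this rule names are not reported here. Alternatives covered filters, clustering, naming, scaling, background, depth and thresholds. Python 3.11.15, numpy 2.4.6, scipy 1.17.1, pandas 2.3.3, scikit-learn 1.9.0, igraph 0.11.9, leidenalg 0.10.2 and matplotlib 3.10.9 were used.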

Additional observations from a re-analysis of the deposited data

Results flagged for a closer look

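The ratios in this section were picked out because they differed between the groups. Bcl2 stood in opposite directions in a pair of small classes, for which no share over all genes was computed. Its log2 ratio of GA over control was 1.24 in plasmacytoid dendritic-like cells and -0.70 in osteoblast-like cells. The osteoblast-like value rests on 33 and 55 UMIs. After thinning, 5.20% of GA and 5.56% of control osteoblast-like cells held a Bcl2 UMI. Bcl2l1 likewise had a log2 ratio of 1.08 in chemokine mature neutrophil-like cells and -0.78 in dendritic-like cells. After thinning, 7.69% (4.27 to 12.6) of GA and 10.5% (7.46 to 14.2) of control dendritic-like cells held a Bcl2l1 UMI, intervals that overlapped. Each class is 1 sample a group, so neither difference between classes was tested.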

How the results depend on the processing

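Of the 22 alternative settings, 19 were planned and 3 were chosen after seeing the data. Among the counts of members, 256 values stayed within 1.5 times the reported count and 60 did not. The share of all genes past the same limit was not computed under the alternatives or with class shares fixed. The counts below therefore show only how the number of members moved, and cannot be read against such a share. With a log2 limit of 0.32 in place of 0.58 (1.5-fold), the members past it numbered 4 in all cells, 4 in neutrophil-like, 5 in dividing, 6 in immature, 4 in macrophage or monocyte-like, 4 in dendritic-like, 2 in B-like, 6 in T or NK-like, 3 in progenitor-like and 2 in mesenchymal-like cells. With 2-fold they numbered 1 in dividing and 2 in all mature cells, and 0 in all cells (also with class shares fixed) and in macrophage or monocyte-, dendritic-, B-, T or NK- and mesenchymal-like cells. The count in immature cells was 2 at resolution 0.5, with cells from 2000 UMIs, with naming by highest marker score, with the list genes among the variable genes, at a mitochondrial limit of 10% and with centred ratios, 3 with log1p scaling, and 0 after thinning or with a minimum of 200 UMIs. In macrophage or monocyte-like cells it was 0 at resolution 0.5 and with cells from 2000 UMIs, 3 at resolution 2, with naming by score and at 10% mitochondrial, and 2 with centred ratios. In progenitor-like cells it was 2 at resolution 0.5, with cells from 2000 UMIs, with naming by score, with list genes kept, at 10% mitochondrial and without batch correction, 4 as a mean over cells and 0 after thinning. In dendritic-like cells it was 2 with naming by score and as a mean over cells, and in B-like cells 0 under both and with 200 UMIs and 2 with 20 UMIs. The mean over cells gave 4 in all cells, 4 in neutrophil-like and 2 in T or NK-like cells, and thinning gave 4 in neutrophil-like, 4 in T or NK-like and 0 in dividing and mesenchymal-like cells. A minimum of 200 UMIs gave 1 in dividing and 0 in mesenchymal-like cells. With class shares fixed the count was 1 with cells from 2000 UMIs and with log1p. The cause of these shifts was not tested.

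In the chemokine state the log2 ratio kept its sign in 16 of 16 settings for Bcl2l1 (0.87 to 1.39), Bcl2a1b (-1.34 to -0.88), Bcl2a1d (-1.71 to -1.15) and Bax (-1.20 to -0.55). Without the chemokine and interferon states, an alternative added after seeing the data, the count for mature over immature was 2, and signs turned: Bcl2a1b gave -0.13 over immature in GA, and -0.13 in GA and -0.31 in control over dividing cells, and Bcl2a1d gave -0.29 and -0.49 over immature and -0.26 and -0.47 over dividing cells. These 7 were the values past the limit whose sign turned. Over all 165 log2 values of members, within the limit or past it, 115 kept their sign in every alternative and 50 did not, among them Bcl2 in all cells (-0.17 to 0.45) and Bcl2l1 with class shares fixed (-0.57 to 0.40). With log1p scaling no dividing state was named, so its counts were not obtained. No paired analysis was possible because the groups share only replicate number 1.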
